A study of Homo sapiens and Mus musculus with 54 samples.

Results

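Of 56739 peaks of the aryl hydrocarbon receptor (AhR) deposited for HepG2 cells, 16764 (29.5%, 95% Wilson interval 29.2 to 29.9) shared at least 1 bp with an H3K27ac region of the untreated experiment and no base with any C/EBPα peak. These are called the H3K27ac-only AhR peaks. The remaining AhR peaks were 23334 with both partners, called three-way peaks, 8067 with C/EBPα alone and 8574 with neither. The H3K27ac-only share ran from 26.7% on chromosome 20 to 34.4% on chromosome 22. Because overlap with these 2 lists chose the peaks, their H3K27ac and their lack of C/EBPα are given as a description.

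The series profiled binding and H3K27ac by ChIP-seq in HepG2, a human liver cancer cell line, and in mice, which are not described here. HepG2 cells labelled Cont (control) and B2_minus (vitamin B2-deficient) were taken on day 12. There were 2 Cont and 2 B2_minus libraries for AhR, as many for C/EBPα, and the H3K27ac ChIP of the untreated experiment had 5 of each. The inhibitor experiment had 2 H3K27ac libraries of Cont with DMSO, 2 of B2_minus with DMSO and 2 of B2_minus with an AhR inhibitor (AhRinh), which the labels do not name further. For AhR and C/EBPα, cells were crosslinked with disuccinimidyl glutarate and then formaldehyde, and for H3K27ac with formaldehyde alone. The deposited lists give 1 set of positions per experiment, with no value for a library, so no difference between Cont and B2_minus or between inhibitor and vehicle was measured, and read depth is unknown. All of the HepG2 data come from 1 cell line.

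AhR is a ligand-activated transcription factor of the bHLH-PAS family. After binding a ligand it leaves its cytoplasmic chaperone complex, enters the nucleus, pairs with ARNT and binds DNA at the core GCGTG, and it is best known for inducing CYP1 enzymes and its own repressor, AHRR. C/EBPα is a bZIP factor that maintains hepatocyte and adipocyte gene programs, and H3K27ac marks active enhancers and promoters. HepG2 keeps many hepatocyte features, including secretion of plasma proteins.

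Promoter sequence was read for the few H3K27ac-only peaks that covered a start site window. Each window of the RefSeq promoter table (GRCh38.p14, matching hg38) runs from 250 bp before to 50 bp after a gene start. Of 16025 H3K27ac-only peaks on chromosomes with windows, 137 (0.855%) overlapped one, and they touched 143 windows, 28 of them of protein-coding genes. The share was 0.787% for three-way peaks and 11.6% for AhR peaks with neither partner. Among 27 stretches of H3K27ac-only peaks before a protein-coding start, 6 held the AhR core GCGTG on either strand and 1 held the AP-1 motif TGANTCA. These 7 are printed because they are the places where the peak, its motif and a gene start can be read together. AHRR fell under the naming rule, and the other 6 were chosen after their values were seen.

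Each sequence below is the part of the peak that lies in the 250 bp before the start site, so that bases farther upstream are left out at KDM2B, SH3D19 and ZBTB38. It is read 5′ to 3′ on the strand of the gene, with GCGTG, its reverse complement CACGC or an AP-1 match in capitals.
AHRR, chr5:321550-321713, plus strand: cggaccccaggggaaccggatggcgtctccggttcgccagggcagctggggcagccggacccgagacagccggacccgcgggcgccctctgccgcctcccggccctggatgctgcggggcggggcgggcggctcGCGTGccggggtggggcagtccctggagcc
KDM2B, chr12:121467379-121467628, minus strand: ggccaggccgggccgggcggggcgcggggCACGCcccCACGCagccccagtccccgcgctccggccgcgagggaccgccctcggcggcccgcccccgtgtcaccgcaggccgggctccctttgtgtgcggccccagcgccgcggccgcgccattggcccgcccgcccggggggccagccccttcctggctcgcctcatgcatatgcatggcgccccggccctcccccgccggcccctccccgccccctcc
SNX25, chr4:185209350-185209575, plus strand: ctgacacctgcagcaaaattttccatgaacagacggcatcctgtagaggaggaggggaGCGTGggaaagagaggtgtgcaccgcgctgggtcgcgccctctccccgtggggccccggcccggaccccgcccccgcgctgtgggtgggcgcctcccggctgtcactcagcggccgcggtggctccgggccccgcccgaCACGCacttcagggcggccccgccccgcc
ANPEP, chr15:89806629-89806845, minus strand: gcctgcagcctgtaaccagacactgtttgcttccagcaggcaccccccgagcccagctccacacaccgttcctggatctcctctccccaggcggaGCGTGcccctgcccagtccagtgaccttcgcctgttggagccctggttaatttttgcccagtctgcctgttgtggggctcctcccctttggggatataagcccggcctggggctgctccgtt
RAP1GAP2, chr17:2975461-2975660, plus strand: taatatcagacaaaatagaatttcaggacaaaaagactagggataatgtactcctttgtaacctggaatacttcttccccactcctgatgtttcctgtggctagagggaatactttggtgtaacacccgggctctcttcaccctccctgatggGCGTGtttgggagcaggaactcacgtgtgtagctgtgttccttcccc
SH3D19, chr4:151325729-151325855, minus strand: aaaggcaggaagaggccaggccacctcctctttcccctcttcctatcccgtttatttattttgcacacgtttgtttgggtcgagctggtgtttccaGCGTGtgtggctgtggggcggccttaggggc
ZBTB38, chr3:141368254-141368456, plus strand: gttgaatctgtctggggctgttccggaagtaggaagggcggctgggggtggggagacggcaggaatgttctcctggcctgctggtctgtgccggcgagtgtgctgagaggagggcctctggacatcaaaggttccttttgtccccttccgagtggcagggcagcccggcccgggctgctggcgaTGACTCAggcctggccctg

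AHRR encodes the AhR repressor, a feedback inhibitor that competes with AhR for ARNT. Its H3K27ac-only peak at the start site lay at chr5:321550-321786 and shared 224 bp with an H3K27ac region, and the core was 30 bp before the start. The nearest C/EBPα peak was 50073 bp away. KDM2B, a histone demethylase, and SNX25, a sorting nexin, each held 2 cores, 1 pair in tandem at KDM2B and 1 core on each strand at SNX25. ANPEP, which encodes aminopeptidase N, had its C/EBPα peak only 70 bp from the H3K27ac-only peak, the closest of the 7. RAP1GAP2, a regulator of the small GTPase Rap1, had the lowest GC content of the printed stretches, 47%, and KDM2B the highest, 83.6%. SH3D19 was the only one of the 7 genes whose peak had a merge number of 2. ZBTB38, a zinc finger protein that binds methylated DNA, held the AP-1 match and no core.

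Across all 143 windows touched by H3K27ac-only peaks, 28.0% held GCGTG (95% Wilson interval 21.3 to 35.8), against 36.5% of all windows, 18.8% of windows under three-way peaks and 57.1% under AhR peaks with neither partner. The longer form TNGCGTG, which contains the core, was in 6.29% of H3K27ac-only windows and 5.51% of all windows. AP-1 matches were in 28.7% of H3K27ac-only windows (21.9 to 36.6), 24.9% of three-way windows and 7.71% of all windows. They were in 12.3% of windows under AhR peaks with C/EBPα alone and 9.65% under those with neither partner. The C/EBP motif TTGCNNAA was in 9.09% of H3K27ac-only windows (5.39 to 14.9), 32% of three-way windows and 10.5% of all windows. Other motifs were read too. The FOXA motif TGTTTAC was in 7.69% of H3K27ac-only windows (4.35 to 13.3), 12.7% of three-way windows and 3.42% of all windows. HNF4A and HNF1 motifs were each in 2 of the 143 windows (1.40%), against 0.384% and 0.322% of all windows. The E-box CACGTG was in 6.99%, against 7.26% of all windows. Base composition moved with these shares. The median GC content was 51.3% in H3K27ac-only windows, 47.7% in three-way windows and 58.7% in all windows. Gene type differed too, with 28 of 143 H3K27ac-only windows at protein-coding genes, 22 of 181 three-way windows and 22155 of all 35116 windows. Among protein-coding windows the median GC content was 59.8% in H3K27ac-only and 62.3% in all windows. There the core was in 35.7% of H3K27ac-only windows (20.7 to 54.2) and 43.0% of all windows.

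Within classes of GC content the core was about as frequent in H3K27ac-only windows as in all windows. It was in 8 of 63 windows (12.7%) under 50% GC against 11.4% of all such windows, in 33.3% against 33.4% from 50 to 60% GC, and in 46.3% against 54.5% above 60% GC. The AP-1 motif was in 33.3%, 35.9% and 14.6% of H3K27ac-only windows in the same 3 classes, against 13.5%, 8.84% and 3.41% of all windows. The lower end of the Wilson interval for H3K27ac-only windows lay above the share of all windows in each of the 3 classes. The same held for each of the other classes of AhR peaks, so it was not particular to H3K27ac-only windows. AP-1 matches were in 26.4%, 26.5% and 13.6% of three-way windows. They were in 18.4%, 14.9% and 6.04% of windows under AhR peaks with C/EBPα alone. With neither partner the shares were 25%, 14.9% and 6.39%. A match is a string of letters and not a measured site, and only the peaks that reach a start site window enter these shares.

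Most H3K27ac-only AhR peaks lay far from genes' starts. Distances were taken from the peak edge to the nearest RefSeq start site. The median was 26220 bp, against 27750 bp for three-way peaks, 10830 bp for AhR peaks with C/EBPα alone and 11850 bp for those with neither. Start sites on chromosome 8 were not used here. Of H3K27ac-only peaks, 76.3% lay over 10 kb from a start site and 4.23% within 3 kb, while 38.3% of AhR peaks with C/EBPα alone and 37.0% of those with neither lay within 3 kb. The H3K27ac-only share within 3 kb was lower than in both of these classes on 22 of 22 chromosomes. Against three-way peaks (3.89%) it was higher on 16 of 22, by 0.509 ± 1.26 percentage points (SD over chromosomes), which is within the spread.

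The H3K27ac list itself limits this comparison. Counted by centre, the untreated list held 225 regions from 2500 to 3000 bp of protein-coding start sites. From 3000 to 3500 bp it held 1463, 6.5 times as many. All AhR peaks numbered 626 and 597 in the same bins, with no such step, and H3K27ac-only peaks numbered 37 and 200. An AhR peak close to a start could therefore rarely enter the H3K27ac-only class, whatever its histone mark. What made the step was not tested. Beyond 3 kb of every start site, a setting chosen after seeing the data, 15347 of 46657 AhR peaks (32.9%) were H3K27ac-only.

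**Figure D1:**
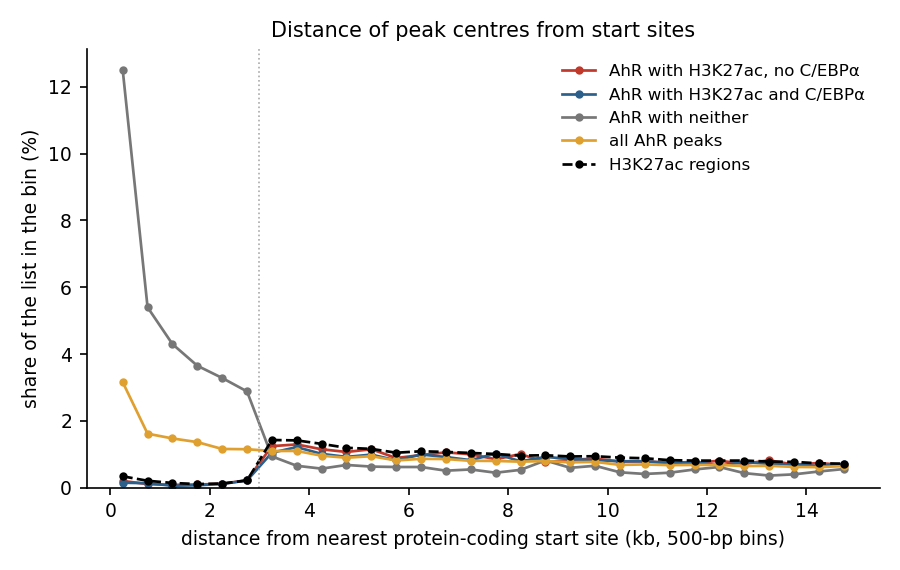
Share of each list (y axis, percent) in 500-bp bins of distance from the nearest protein-coding start site (x axis, kb), for 3 classes of AhR peaks, all AhR peaks and the untreated H3K27ac regions. Both AhR classes defined by H3K27ac follow the H3K27ac list, which rises from 225 to 1463 regions across the dotted line at 3 kb, while the AhR list as a whole has no step there.

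Gene bodies held similar shares of H3K27ac-only and three-way peaks. Inside a gene body lay 54.6% of H3K27ac-only and 54.5% of three-way peaks, and the sign of the difference varied over chromosomes, higher on 11 and lower on 12. Within 1 kb of either end of a gene lay 2.68% and 2.02%, higher for H3K27ac-only peaks on 19 of 23 chromosomes by 0.698 ± 0.994 points (SD over chromosomes). Peak widths barely differed, with medians of 233 and 234 bp.

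The classes of AhR peaks differed in how often a peak had been merged. Each entry's name ends in a number, read here as how many peaks were merged into it, and an entry with 2 or more is called merged. Of all AhR peaks 42.3% were merged, of H3K27ac-only peaks 31.6% (30.9 to 32.3), of three-way peaks 63.8% and of those with neither partner 13.3%. The H3K27ac-only share was below the three-way share on 23 of 23 chromosomes, by 31.6 ± 3.44 points (SD over chromosomes), and above the share with neither partner on 23 of 23, by 18.2 ± 4.72 points. AhR peaks with C/EBPα alone were merged in 33.1% of cases, and their difference from H3K27ac-only peaks was within the spread over chromosomes (1.15 ± 5.67 points, H3K27ac-only lower on 14 of 23). The libraries that contributed to a merged entry are not stated in the sources used here.

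**Figure D2:**
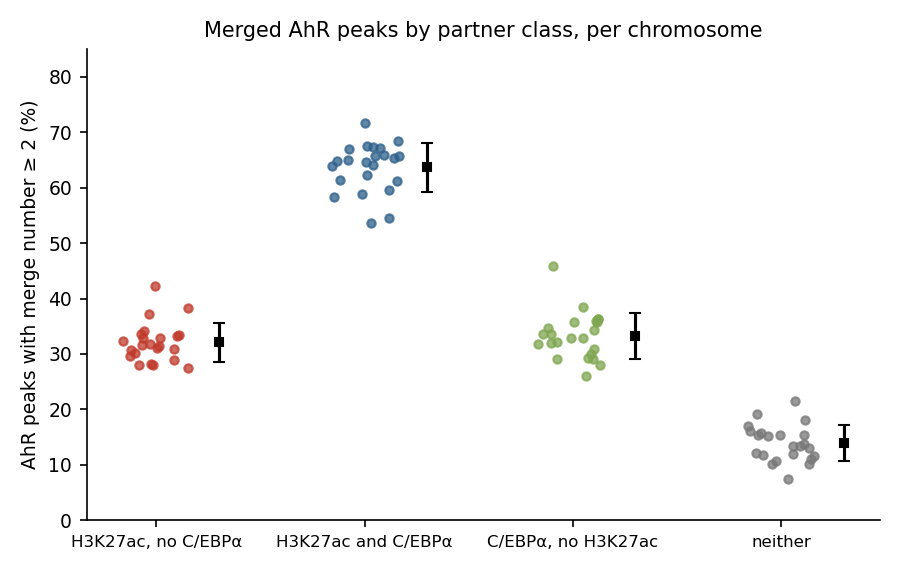
Share of AhR peaks with a merge number of 2 or more (y axis, percent) in the 4 classes of AhR peaks, with 1 point per chromosome (23) and the mean ± SD over chromosomes as a black square with bars. H3K27ac-only peaks and those with C/EBPα alone overlap near 32 to 33%, while three-way peaks lie above and peaks with neither partner below.

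The H3K27ac regions under these peaks were closely aligned with AhR, and about as wide as the list as a whole. The median region width was 285 bp under both H3K27ac-only and three-way peaks, 282 bp for regions without AhR and 283 bp over all regions. The AhR centre lay a median of 26.5 bp from the region centre for H3K27ac-only and 27 bp for three-way peaks. A region under an H3K27ac-only peak was merged in 88.3% of cases, against 93.2% under three-way peaks, lower on 23 of 23 chromosomes by 4.85 ± 1.93 points (SD over chromosomes). Regions without an AhR peak were merged in 70.4% of cases.

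The rule separated peaks by overlap, and some H3K27ac-only peaks missed C/EBPα narrowly. Their median distance to the nearest C/EBPα peak was 6134 bp, with quartiles at 1707 and 18500 bp. For AhR peaks with neither partner the median was 6890 bp. Of H3K27ac-only peaks, 526 (3.14%) lay within 100 bp of a C/EBPα peak, 3052 (18.2%) within 1 kb and 6495 (38.7%) over 10 kb away. At the boundary, 109 lay no more than 20 bp from C/EBPα, while 76 three-way peaks shared no more than 20 bp with it. For H3K27ac, 33 H3K27ac-only peaks shared no more than 20 bp with their region, and 26 AhR peaks without C/EBPα lay outside a region by no more than 20 bp. The share of merged AhR peaks was 39.9% within 100 bp of C/EBPα (35.8 to 44.2) and between 29.6% and 32.5% in the 6 ranges farther away.

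The list named for the inhibitor experiment was not used to choose the peaks. An H3K27ac region of that list overlapped 90.1% of H3K27ac-only peaks (89.6 to 90.5) and 93.8% of three-way peaks, lower for H3K27ac-only on 23 of 23 chromosomes by 3.58 ± 1.54 points (SD over chromosomes). Counted as regions with identical coordinates in both lists, the background was 87.4% of the untreated list. The share was 90% for regions under H3K27ac-only peaks and 84.4% for regions without AhR. The difference in overlap was smaller within each class of merge number. Among merged AhR peaks alone it was 2.20 ± 2.98 points, lower on 20 of 23 chromosomes. The shares were 93.2% (92.5 to 93.9) for H3K27ac-only and 95.7% (95.4 to 96.0) for three-way peaks. Among single AhR peaks the difference was 1.43 ± 2.35 points, lower on 15 of 23, with 88.6% (88.0 to 89.2) and 90.5% (89.8 to 91.1). The SD describes spread over chromosomes, so these values do not show that the difference was absent within a class. Which vehicle and inhibitor libraries entered the inhibitor list is not stated in the sources used here. The list shares most of its coordinates with the untreated list, so these shares do not measure an effect of the inhibitor.

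Presence in the inhibitor list was lower at greater distance from C/EBPα. Of H3K27ac-only peaks within 100 bp of a C/EBPα peak 99.0% overlapped a region of the inhibitor list, of those 3 to 10 kb away 92.0%, and of those over 30 kb away 76.7%. Peaks within 1 kb (97.4%) stood above those over 30 kb away on 23 of 23 chromosomes, by 20.5 ± 7.35 points (SD over chromosomes). Regions without AhR showed the same order. Regions with neither AhR nor C/EBPα went from 95.2% within 1 kb to 67.5% beyond 30 kb, and regions under H3K27ac-only peaks from 97.1% to 76.7%. Between these ends the shares were 92.9% under H3K27ac-only peaks and 86.8% without AhR from 1 to 10 kb, and 88.0% and 79.6% from 10 to 30 kb.

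The number of other H3K27ac regions moved with distance too. H3K27ac-only peaks within 1 kb of C/EBPα had a mean of 3.41 to 3.90 regions within 5 kb in the 3 ranges read, and those over 30 kb away had 1.55. With 0 or 1 other region within 5 kb, the share of H3K27ac-only regions in the inhibitor list went from 94.1% within 1 kb of C/EBPα to 74.7% beyond 30 kb. With 2 or more other regions it went from 98.6% to 91.2%. The 1664 H3K27ac-only peaks outside the inhibitor list were merged in 21.5% of cases, against 32.7% of the 15100 inside it. Their median distance to C/EBPα was 18580 bp against 5466 bp, and their regions were narrower, at 265 against 288 bp. The parts of merging, density and C/EBPα in this pattern were not tested apart beyond these splits.

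**Figure D3:**
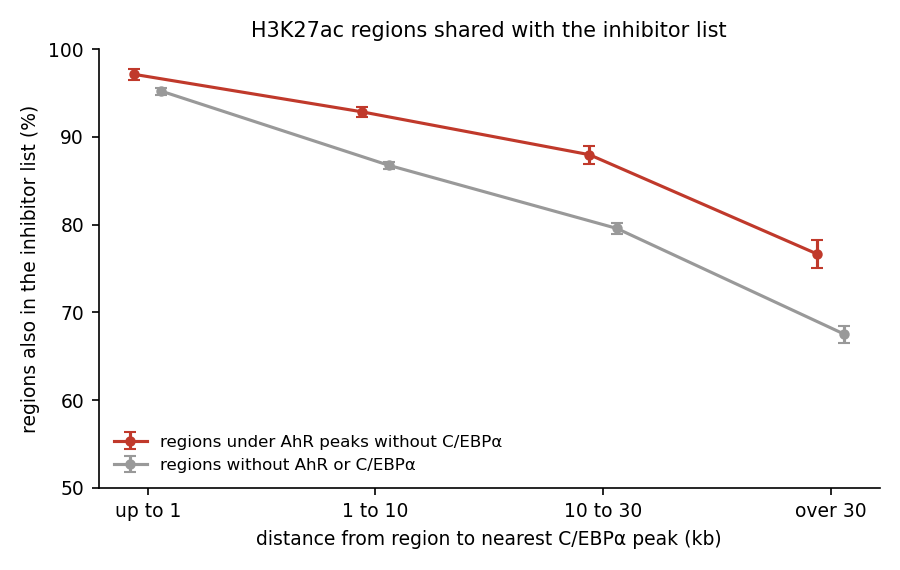
Share of untreated H3K27ac regions with identical coordinates in the inhibitor list (y axis from 50 to 100%) by distance to the nearest C/EBPα peak (x axis, kb), with 95% Wilson intervals. Regions under H3K27ac-only AhR peaks go from 97.1% to 76.7% and regions with neither AhR nor C/EBPα from 95.2% to 67.5%.

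Grouping H3K27ac-only peaks no more than 10 kb apart from each other left 11392 (68.0%) single, and 148 clusters of 4 or more held 660 (3.94%). An AhR peak of any class lay a median of 5846 bp from them, and 45.5% had one within 5 kb, against 50.6% of three-way peaks. The nearest other AhR peak was itself H3K27ac-only for 33.8% of them, against 29.5% of all AhR peaks, and three-way for 42.9%, against 41.1%. The 5 clusters with the most H3K27ac-only peaks, with ties broken by the shorter span, lay at ALB, PRDM16, SUSD6, AHSG and ALOX12B, named by the nearest gene. Clusters of 6 numbered 12.

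The cluster with the most held 13 H3K27ac-only peaks over 25372 bp at chr4:73397639-73423011, around ALB, which encodes serum albumin. The same span held 19 AhR peaks, 7 C/EBPα peaks and 29 H3K27ac regions. Only 3 of the 13 were merged, all outside the gene body, at -6.55, -2.74 and 18.1 kb from the start site, counted in the direction of transcription. The other 10 were single, from 6.71 to 18.6 kb after the start, and 8 of them lay inside the gene. Within 40 kb of the start, 14 H3K27ac-only peaks ran from -6.55 to 36.2 kb, and 3 were merged. In the same window 11 three-way peaks ran from -28.8 to 28.5 kb, and 6 were merged. The 4 three-way peaks inside the cluster span, at 3.04, 3.35, 11.8 and 14.5 kb, were all single. Of the 13, 1 qualified narrowly, sharing 5 bp with its region.

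**Figure D4:**
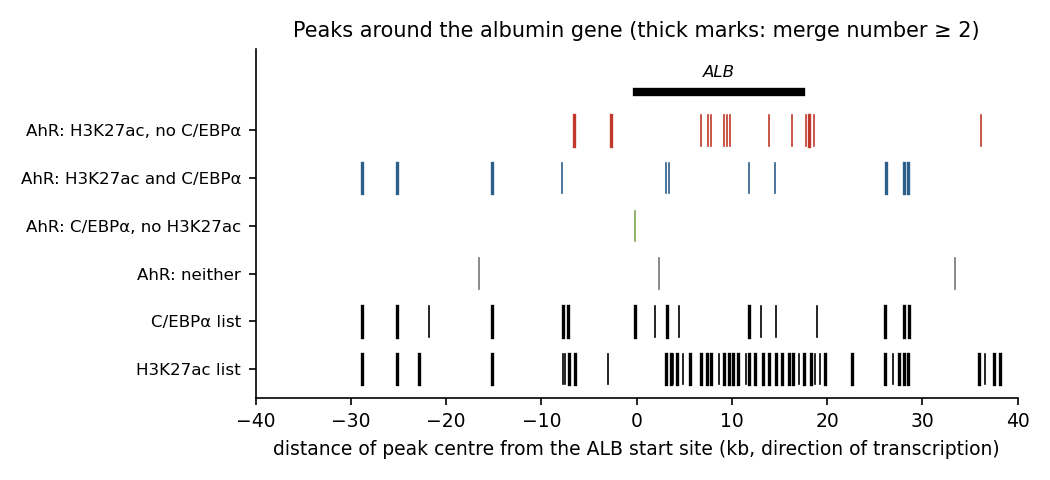
Positions of AhR peaks by class, C/EBPα peaks and untreated H3K27ac regions within 40 kb of the ALB start site (x axis, kb in the direction of transcription), with thick marks for entries with a merge number of 2 or more and a bar for the gene. Of 14 H3K27ac-only peaks in this window 8 lie in the gene body, and the merged three-way peaks lie outside it.

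At AHSG, which encodes the plasma glycoprotein fetuin-A, 6 H3K27ac-only peaks lay within 4337 bp at chr3:186618484-186622821, none of them merged, with 7 H3K27ac regions and no C/EBPα peak in the span. The nearest C/EBPα peaks were 2981 to 5425 bp from them. PRDM16, a transcription factor of brown fat and haematopoiesis, had 9 H3K27ac-only peaks in one intragenic cluster at chr1:3320596-3335652, of which 3 were merged, with 2 C/EBPα peaks in the span. Of the 9, 3 lay on 1 H3K27ac region, at 3322469 to 3323828. SUSD6 had 7 over 25754 bp on chromosome 14, and ALOX12B, a lipoxygenase of the skin barrier, had 6 over 5795 bp on chromosome 17. In each of these 5 spans the inhibitor list held as many regions as the untreated list.

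Peaks were assigned to the nearest protein-coding gene body within 50 kb. In all, 6703 of 19970 genes (33.6%) had an H3K27ac-only peak, and 13868 of the 16764 peaks (82.7%) were assigned. Of these genes 4422 (66.0%) also had a three-way peak, and 1268 (18.9%) had H3K27ac-only peaks as their only AhR peaks. There were 3566 genes with 1 H3K27ac-only peak and 58 with 10 or more.

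Among the classical AhR targets that were named whatever their values, H3K27ac-only peaks were assigned to AHRR, CYP1A2 and TIPARP. In the full list of AhR targets, 8 of 16 genes (50%) had one, against 33.6% of all protein-coding genes. Among the 8 was SLC7A5, with 4 of 14 AhR peaks. An AhR peak of any class was assigned to 13 of the 16 genes, against 60.3% of all genes. Over that list 14 of 61 AhR peaks were H3K27ac-only (22.95%, Wilson interval 14.19 to 34.91). The interval includes the 29.1% of all protein-coding genes. AHRR had 3 H3K27ac-only peaks of 4 AhR peaks, at chr5:321550-321786, chr5:399938-400142 and chr5:415860-416095, all touching the gene, all single and all in the inhibitor list. Their nearest C/EBPα peaks were 50073, 80695 and 64742 bp away, beyond the 90th percentile of H3K27ac-only peaks (45550 bp). The peak of CYP1A2, a hepatic P450 enzyme, was 1 of 2 AhR peaks, merged, and lay 3671 bp from the gene at chr15:74760278-74760517. TIPARP, an ADP-ribosyltransferase that represses AhR, had 2 of 8, one only 11 bp from a C/EBPα peak and the other outside the inhibitor list. CYP1A1 and CYP1B1, P450 enzymes induced by AhR, NQO1, a quinone reductase, and AHR itself had none, although each had an AhR peak. The AhR peak of AHR and 2 of the 5 of CYP1A1 were three-way peaks, and both AhR peaks of CYP1B1 had neither partner. CEBPA, which encodes C/EBPα, had 4 of 8, from 47 to 5659 bp from a C/EBPα peak and from 1031 to 28558 bp outside the gene.

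Genes with the most H3K27ac-only peaks were long. RPS6KC1, a ribosomal S6 kinase-like protein, had 23 of 46 AhR peaks over a gene of 811495 bp, 8 of them merged and all in the inhibitor list. PDE4D, a cAMP phosphodiesterase, and TRAPPC9, a subunit of a vesicle tethering complex, had 19 each, which was 36.5% and 67.9% of their AhR peaks. PRDM16 had 16 of 23, and GSE1, LRMDA, RAD51B, SYN3 and WWOX had 16 each, at 30.2% to 39.0% of their AhR peaks. None of the 16 at LRMDA was merged. MACF1, a crosslinker of actin and microtubules, had 15 of 34, and CAST, the calpain inhibitor calpastatin, and CMIP had 14 each.

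Only 6 of 3211 genes with 5 or more AhR peaks had H3K27ac-only peaks alone. ARID1A, a subunit of the SWI/SNF chromatin remodeller, had 6 of 6, from 2691 to 29446 bp from C/EBPα, with 3 merged. BAG3, a co-chaperone of HSP70, had 5 of 5, of which 2 were in the gene and 1 lay 94 bp from a C/EBPα peak. CFAP74, COG5, a subunit of a Golgi complex, and MTAP, an enzyme of methionine salvage, had 5 of 5 each. The next in order were SLC12A7, a potassium-chloride cotransporter, with 7 of 8, and BTG4 with 6 of 7. Genes at the top of a ranking by share are those where few AhR peaks make an extreme share most easily reached.

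The share of AhR peaks that were H3K27ac-only was then read in 24 gene lists, with 29.1% over all protein-coding genes (13868 of 47680). It was lowest in fatty acid oxidation, 17 of 94 (18.1%, Wilson interval 11.6 to 27.1), and in the NRF2 response, 27 of 129 (20.9%, 14.8 to 28.7). These were the only 2 lists whose interval excluded 29.1%. In fatty acid oxidation, ANGPTL4, an inhibitor of lipoprotein lipase, had 2 of 4 and PLIN2, a lipid droplet protein, had 2 of 11. In the NRF2 response, AKR1C1, an aldo-keto reductase, had 5 of 13, SRXN1, sulfiredoxin, had 4 of 7 and FTH1, the ferritin heavy chain, had 2 of 15. With 24 lists read, an interval that misses the overall share is not by itself a difference, and no test was made.

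**Figure D5:**
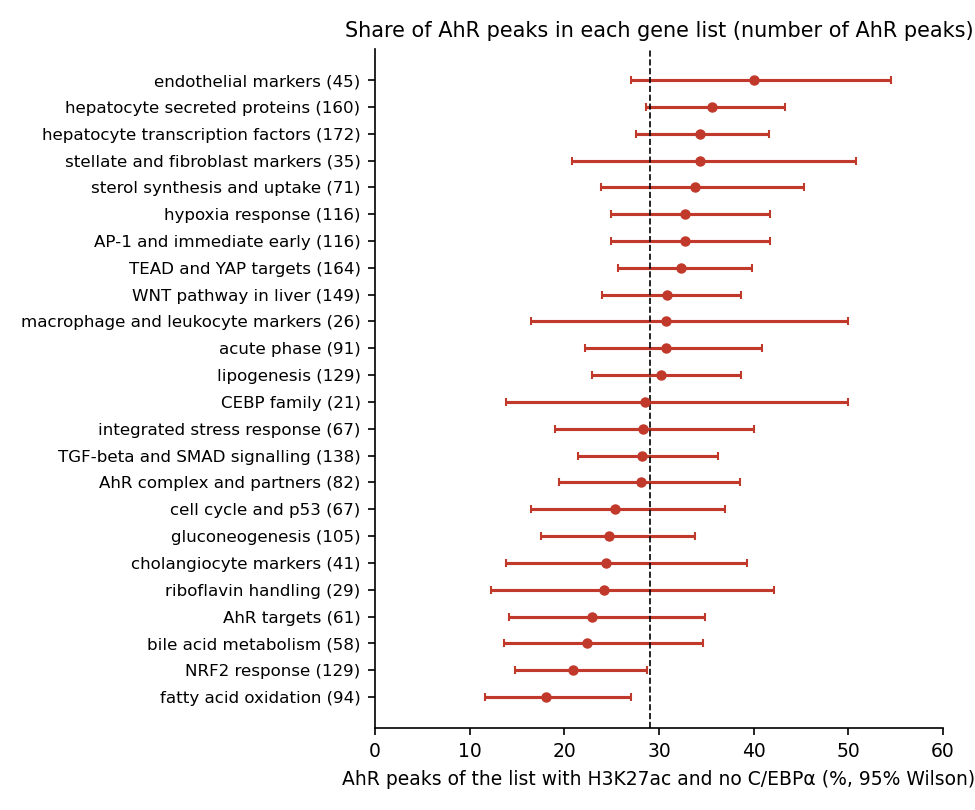
Share of the AhR peaks assigned to each of 24 gene lists that were H3K27ac-only (x axis, percent, with 95% Wilson intervals), with the number of AhR peaks in brackets and the share over all genes, 29.1%, as a dashed line. Only fatty acid oxidation and the NRF2 response have intervals wholly below the line, and no list lies wholly above it.

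In genes that define hepatocytes, 21 of 26 transcription factor genes and 14 of 22 secreted protein genes had an H3K27ac-only peak (80.8% and 63.6%), against 33.6% of all protein-coding genes. The share among AhR peaks was 34.3% (27.6 to 41.7) and 35.6% (28.6 to 43.3), and both intervals include the 29.1% of all genes. RXRA, the shared partner of nuclear receptors, had 9 of 14, FOXA2, a pioneer factor of the liver, had 5 of 8 and GATA6, a factor of early endoderm, had 4 of 5. Markers of other cell types gave 3 of 14 macrophage and leukocyte genes, 4 of 14 stellate and fibroblast genes, 4 of 10 cholangiocyte genes and 8 of 12 endothelial genes with an H3K27ac-only peak. These lists differ in gene length, with medians of 28.5 kb for the hepatocyte factors, 9.88 kb for the secreted proteins, 20.1 kb for macrophage and 43.4 kb for endothelial markers. The lists of positions hold no expression, so the labelled cell type was not checked by transcript levels.

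In the WNT list 15 of 16 genes had an AhR peak of any class, against 60.3% of all genes. At least 1 H3K27ac-only peak was assigned to 14 of 16 (87.5%), against 33.6% of all genes. The median was 2.5 per gene against 0 over all genes. The median gene length was 82.9 kb in that list and 24.2 kb over all genes, and the share of AhR peaks was 30.9% (24.0 to 38.7), an interval that includes 29.1%. ZNRF3, a membrane ligase that limits WNT signalling, had 12 of 32, 7 of them merged. In the TEAD and YAP list, 15 of 18 genes (83.3%) had an H3K27ac-only peak, against 33.6% of all genes, and the median gene length was 44.1 kb. The share of its AhR peaks was 32.3% (25.6 to 39.8), an interval that also includes 29.1%. TEAD1 had 11 of 21 and YAP1 had 9 of 23. In the list of AP-1 and immediate early genes 18 of 21 had an AhR peak of any class. An H3K27ac-only peak was assigned to 14 of 21 (66.7%), against 33.6% of all genes. There 32.8% of AhR peaks (24.9 to 41.7) were H3K27ac-only, again with 29.1% inside the interval. DUSP1, a phosphatase of MAP kinases, had 8 of 16, and FOS, a subunit of AP-1, had 4 of 7. SLC2A1, the glucose transporter GLUT1, had 7 of 9, none of them merged, and over the hypoxia list 5 of 38 (13.2%, 5.75 to 27.3) were merged against 31.6% of assigned peaks. This was the lowest merged share of the 24 lists, picked with all of them in view, and SLC2A1 gave 7 of the 38. The sterol synthesis list was at 16.7%, and no test was made.

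In the lipogenesis list 30.2% of AhR peaks were H3K27ac-only, in gluconeogenesis 24.8% and in sterol synthesis and uptake 33.8%, and all 3 intervals include 29.1%. ACLY, which makes acetyl-CoA for lipogenesis, had 4 of 5, SCD, a fatty acid desaturase, had 6 of 12 and MLXIPL, the glucose-sensing factor ChREBP, had 5 of 14. HMGCS1, an enzyme of sterol synthesis, had 3 of 4. In gluconeogenesis, PPARGC1A, a transcriptional coactivator, had 7 of 25 and FOXO1, an insulin-regulated factor, had 6 of 16. Of 10 riboflavin handling genes 4 (40%) had an H3K27ac-only peak, near the 33.6% of all genes, and 24.1% of the list's AhR peaks (12.2 to 42.1) were H3K27ac-only. RFK, the riboflavin kinase, had a single AhR peak, which was H3K27ac-only and merged, lay 1765 bp from C/EBPα and was not in the inhibitor list.

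Position along the gene differed at secreted protein genes. Among the 16 genes of that list with a known strand, 41 H3K27ac-only peaks lay in a gene body or up to 3 kb past its end, and 35 of them (85.4%, 71.6 to 93.1) lay past the midpoint of the gene body or beyond its end. Over all protein-coding genes with a strand this share was 50.8% of 8071. Peaks before the gene start were not counted, while the 3 kb past the end counted as late, which weighs more in short genes. Of the 41 peaks, 6 lay before the midpoint, 20 between it and the gene end, and 15 past the end. Over all genes these numbers were 3975, 3597 and 499. All 12 secreted protein genes with a counted H3K27ac-only peak had more of them late than early. Many held few, with 1 counted peak each at APOA2, APOH, F10, FGA and HPX and 2 each at AMBP and FGG. AHSG had 6 of 6 late, ALB 8 of 11, TF, the iron carrier transferrin, 6 of 7, and SERPINA1, α1-antitrypsin, 3 of 4. FGG and FGA, chains of fibrinogen, had 2 of 2 and 1 of 1, each past the end of the gene.

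The H3K27ac list had a like placement in these genes, with 75.3% of 154 regions late (68.0 to 81.5) against 55.2% over all genes. Three-way peaks were late in 10 of 17 cases (58.8%, 36.0 to 78.4) and C/EBPα peaks in 55.6% of 36. The missing regions near start sites lower the number of early regions in short genes. Their part in the placement was not tested apart from the comparison with all genes, which are longer, with a median of 24.2 kb. Leaving out each gene in turn gave 82.9% to 90%, and leaving out ALB, AHSG and TF together gave 15 of 17 (88.2%). H3K27ac-only peaks at secreted protein genes were merged in 13 of 57 cases (22.8%, 13.8 to 35.2), and three-way peaks there in 69.4% (55.5 to 80.5). Over all protein-coding genes these shares were 31.6% and 63.7%, each inside its interval. The late placement was noticed in the data, and the peaks of 1 gene are not independent.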

How the data were processed

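The authors deposited peak lists of positions only (name, chromosome, start, end and a plus sign), with no count, score or signal per library. Per the submitters' processing notes, Bowtie2 and HOMER were used (no versions named) with the builds hg38 and mm10. For caller settings, filters and the libraries merged into each list, the sources used here say nothing. The design allowed for values per library, and since the deposited lists are positions no conditions were tested. Replicates are biological per the labels' protocols, and 0 columns of values per sample went unmapped. Mouse lists were not used.

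Lists were intersected with own Python code at a minimum overlap of 1 bp. The code was tested on simulated data, where 2000 of 2000 simulated peaks had the planted overlap and distances. Shares carry 95% Wilson intervals, which cover counting error over peaks only and are too narrow because neighbouring peaks are not independent. Comparisons between classes give the number of chromosomes in the same direction and the SD over them. Depth is unknown. Genes, start sites and promoter windows came from RefSeq tables of GRCh38.p14, and all 399 listed symbols were found. No genome sequence was used here, so motifs were read in promoter windows alone, on both strands.

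The genes named were 8 chosen whatever their values (AHR, AHRR, CYP1A1, CYP1A2, CYP1B1, TIPARP, NQO1 and CEBPA), the 12 with most H3K27ac-only peaks, the 8 with the highest share among genes with 5 or more AhR peaks, up to 3 per gene list and the 5 clusters with the most H3K27ac-only peaks. Of the genes this rule named from lists, those with the most peaks or a plain role are printed, and some are not reported here. FGG and FGA were picked with their values in view. The class of peaks, the gene lists and the rules were chosen with earlier results of these data known. Alternatives were other overlap rules, other C/EBPα exclusions, merged peaks only, the inhibitor list and other gene windows. The software was Matplotlib 3.10.9, SciPy 1.17.1, pandas 2.3.3, NumPy 2.4.6 and Python 3.11.15.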

Additional observations from a re-analysis of the deposited data

How the results depend on the processing

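The number of H3K27ac-only peaks ran from 13712 to 21796 over 6 alternatives and was 5294 with merged AhR peaks alone, where by construction fewer peaks enter. The merged share was 32.4% where 50% of the shorter peak had to overlap, 36.8% when only merged C/EBPα peaks excluded a peak and 32.4% with the inhibitor list in place of the untreated one. The share within 1 kb of a gene end was 2.33% among merged peaks. The share overlapping the inhibitor list was 88.4% with centres within 500 bp, 88.4% with no C/EBPα peak within 1 kb, 90.9% when only merged C/EBPα peaks excluded a peak and 93.2% among merged peaks. Genes with an H3K27ac-only peak numbered 422 within 1 kb of a gene end and 3152 with merged peaks only. Except for the smaller inputs, the cause was not tested. Restricting to AhR peaks over 3 kb from start sites, chosen after seeing the data, left 15347 H3K27ac-only peaks and moved none of the 3 shares beyond its counting interval.

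No paired analysis was possible because the lists hold positions without values per library. For the same reason no replicate was left out. Motifs in 200 bp around peak centres were not run, since no genome was used here. The merged share with merged peaks alone and the inhibitor share with the inhibitor list are fixed by construction and were not run. Depth is unknown, and absence from a list is not absence of binding.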
